A study of Mus musculus with 14 samples.

Results

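The genes described here, measured in bladder urothelium, are Hist4h4, Gm11127, A430078G23Rik, Cmah, Psg23, Zfp575 and Zfp706. They are 7 of the 20308 gene symbols in the table, and were picked because they were raised in Dnmt1-deficient urothelium and because a transcript of each shares a stretch of sequence with the others. Their levels in Dnmt1cKO libraries are therefore given as a description, with no test. The 14 libraries held polyadenylated RNA from this tissue, the epithelial lining of the bladder, taken on embryonic day 15.5 from mice of the strain C57BL/6; 129S4.

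The Dnmt1cKO group (n = 5) had the genotype Shhcre/+; Dnmt1flox/flox, in which Cre made from the Shh locus deletes Dnmt1 in cells that express or once expressed Shh. The Control group (n = 2) was Shhcre/+; Dnmt1flox/+ and so kept 1 Dnmt1 allele that is not floxed. The third group (n = 7) was labelled as Cre-negative litter mates, with no further allele given. Urothelium was freed from stroma with trypsin, and each library is 1 lysate of tissue pooled from several embryos, so a p-value reflects only how such pools differ from each other. In bulk tissue, fewer expressing cells and less RNA per cell cannot be told apart.

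Dnmt1 copies DNA methylation onto the new strand after replication, and methylation of cytosines in CG pairs keeps many retrotransposons and germline genes silent in mouse tissues. Many retrotransposons are bounded by long terminal repeats, which hold the start site, promoter and polyadenylation signal of the element. Copies of such repeats lie within introns, untranslated regions and flanks of many genes, where they can supply a promoter or the end of a transcript. No repeat annotation was used here, so the shared stretch is not assigned to a repeat family.

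The shared stretch was taken from Hist4h4, at chr6:136802204-136802435 on the minus strand of GRCm38 (mm10), where it covers 232 bases of the 3′ untranslated region of a single-exon GENCODE transcript of 2863 bases. Its first 30 bases are shown, read in the same direction in each gene, because they let the copies be compared base by base. Capitals mark the 22 positions that are the same in all 7 genes. The sequence of Gm11127 is also that of A430078G23Rik, Zfp575 and Zfp706, so 4 of the 7 genes have the same letters here.
Hist4h4: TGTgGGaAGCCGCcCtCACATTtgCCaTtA
Gm11127: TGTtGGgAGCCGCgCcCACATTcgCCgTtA
Cmah: TGTgGGgAGCCGCcCtCACATTcaCCgTtA
Psg23: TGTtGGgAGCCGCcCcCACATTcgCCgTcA

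These windows lie at chr6:136802406-136802435 (Hist4h4), chr17:36056097-36056126 (Gm11127), chr13:24470900-24470929 (Cmah) and chr7:18606737-18606766 (Psg23). The other windows with the sequence of Gm11127 lie at chr8:3390017-3390046 (A430078G23Rik), chr7:24584101-24584130 (Zfp575) and chr15:36997329-36997358 (Zfp706). Cmah is the exception in direction: its copy runs antisense to the gene, and the letters above are the reverse complement of the Cmah transcript. The copies of the other 6 genes run in the sense direction.

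Further along, each copy holds the hexamer AATAAA, the usual polyadenylation signal, given here in capitals within 30 bases because it lies at the annotated end of most of these transcripts. The sequence of Psg23 is shared by Hist4h4, A430078G23Rik and Zfp575. The Cmah sequence is again the reverse complement of its transcript.
Psg23: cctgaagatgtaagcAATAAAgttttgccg
Gm11127: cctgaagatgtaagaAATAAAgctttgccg
Zfp706: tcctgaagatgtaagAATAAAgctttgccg
Cmah: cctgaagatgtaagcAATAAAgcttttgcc

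In Psg23, Zfp575, Gm11127, A430078G23Rik and Zfp706 the window ended 0, 1, 3, 5 and 5 bases before the annotated 3′ end of the transcript. In Hist4h4 it ended 253 bases before the end. AATAAA, searched on the transcript strand, stood in the last 30 bases of 27.0% of the 94388 transcripts of genes in the table, so the hexamer by itself is common. A match is a description of the letters and does not show where RNA was cut.

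The copies differed in how alike they were. Those of Gm11127, Zfp575 and Zfp706 were identical over 213 bases. The copy of A430078G23Rik was 93.4% identical to that of Gm11127, and the copy of Psg23 was 90.7% identical to it. The copy of Hist4h4 was the most divergent, at 80.9% identity to Zfp706 and 86.9% to A430078G23Rik, its closest relative among the 7. In Gm11127, 99 bases of its 213-base match were coding sequence, so the annotated protein ends inside the copy. In the other 6 genes the match was entirely 3′ untranslated.

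**Figure D1:**
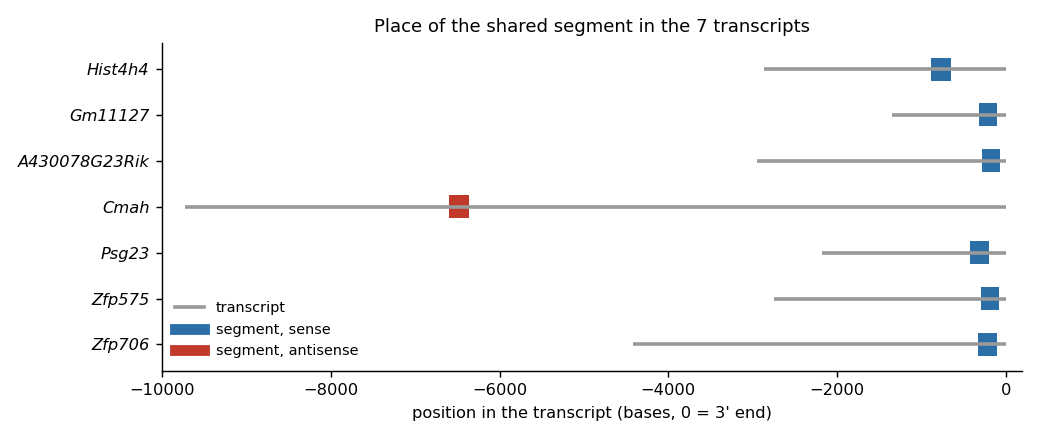
Each grey line is the annotated transcript of 1 gene, drawn to scale in bases back from its 3′ end at 0, and each box is the match to the Hist4h4 segment. In Gm11127, A430078G23Rik, Psg23, Zfp575 and Zfp706 the match lies 70 to 200 bases from the 3′ end, in Hist4h4 it lies 651 bases from it, and the antisense match of Cmah lies 6356 bases from it.

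Annotations disagree on whether Hist4h4 holds the stretch at all. The GENCODE gene spans chr6:136801553-136804415, whereas the RefSeq model, named H4f16, spans chr6:136803993-136804431, only 439 bases, and the segment lies 1557 bases beyond it. The annotation used for counting was not given in the sources used here, and the table gives 1 value per gene, so where in a transcript the reads fell is not known. Likewise RefSeq treats A430078G23Rik as another name of Arhgef18, which has a row of its own in the table.

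The 250 bases before the RefSeq start were found for 4 of the 7 genes, and none of these windows matched the segment. They are printed for the 2 genes with the highest counts, with CG pairs in capitals since these are the sites that Dnmt1 maintains. The RefSeq windows (GRCm38.p6) lie on the minus strand at chr6:136804432-136804681 for Hist4h4, where the gene is named H4f16, and at chr17:36058372-36058621 for Gm11127.
Hist4h4: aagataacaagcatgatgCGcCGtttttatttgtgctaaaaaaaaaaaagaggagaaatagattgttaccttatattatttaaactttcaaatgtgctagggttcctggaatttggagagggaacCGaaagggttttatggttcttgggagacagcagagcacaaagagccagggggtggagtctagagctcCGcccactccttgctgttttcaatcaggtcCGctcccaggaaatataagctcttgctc
Gm11127: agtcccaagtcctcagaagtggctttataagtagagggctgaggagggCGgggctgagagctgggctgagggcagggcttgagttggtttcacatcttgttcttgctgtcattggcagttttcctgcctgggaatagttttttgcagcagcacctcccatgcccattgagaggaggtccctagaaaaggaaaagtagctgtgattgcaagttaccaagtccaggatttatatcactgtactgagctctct

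The Hist4h4 window held 5 CG pairs and the Gm11127 window 1, against a median of 6 over the 32851 promoter windows, of which 55.6% held at least 5 and 92.1% at least 1. The Psg23 window held 2 CG pairs, and the 2 windows of Cmah held 3 and 2. A match to the segment was found in 20 of the 32851 windows.

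The genotype labels and the tissue were checked first. Dnmt1 measured 9.99, 26.7, 123, 31.2 and 49.1 CPM (counts per 1000000, with TMM scaling) in Dnmt1cKO libraries 1 to 5, against 97.4 and 106 CPM in Control libraries and a lowest, median and highest of 41.3, 138 and 193 CPM in Cre-negative libraries. The library labelled Dnmt1cKO 3 is thus at the level of the Controls for Dnmt1, and results are also given without it. Shh measured 32.5, 98.3, 3.85, 65.2 and 18.3 CPM in Dnmt1cKO libraries 1 to 5, the value of library 3 being the lowest of the 14. It measured 156 and 61.8 CPM in Controls and 168 to 373 CPM in Cre-negative libraries. All 17 urothelial markers were detected in the Dnmt1cKO group, though Upk2 had 0 CPM in the library labelled Dnmt1cKO 3. They summed to 5734 to 17140 CPM in Dnmt1cKO, 8158 to 13750 CPM in Control and 12070 to 21240 CPM in Cre-negative libraries. Against Cre-negative 1 of the 17 had a positive log2 fold change, and the median was -0.47. There 1 was higher and 6 lower with p under 0.05 before adjustment in edgeR. After adjustment edgeR called 0, DESeq2 only Gata3 and limma-voom only Krt7, both lower. The median was -0.05 against Control and -0.52 in Control against Cre-negative. Stroma and smooth muscle markers summed to 261 to 11760 CPM in Dnmt1cKO, 3372 and 12630 CPM in Control, and 170 to 3230 CPM in Cre-negative libraries. Library totals ran from 2520509 to 13131921 expected counts.

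All 7 genes stood higher in each of the 5 Dnmt1cKO libraries than in any of the 9 others, which was so for 0.684% of the 13011 genes tested. All 7 were among the genes called higher against Cre-negative, a call made for 0.915% of genes tested (0.184% were called lower), and 5 of the 7 (not Cmah or Zfp575) were among those called higher against Control, a call made for 0.177%. The genes were chosen from these contrasts, so nothing is read from these counts. Together the 7 genes took 0.679% to 1.46% of all counts in Dnmt1cKO libraries, 0.0223% and 0.0267% in Controls, and 0.0130% to 0.0247% in Cre-negative libraries.

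**Figure D2:**
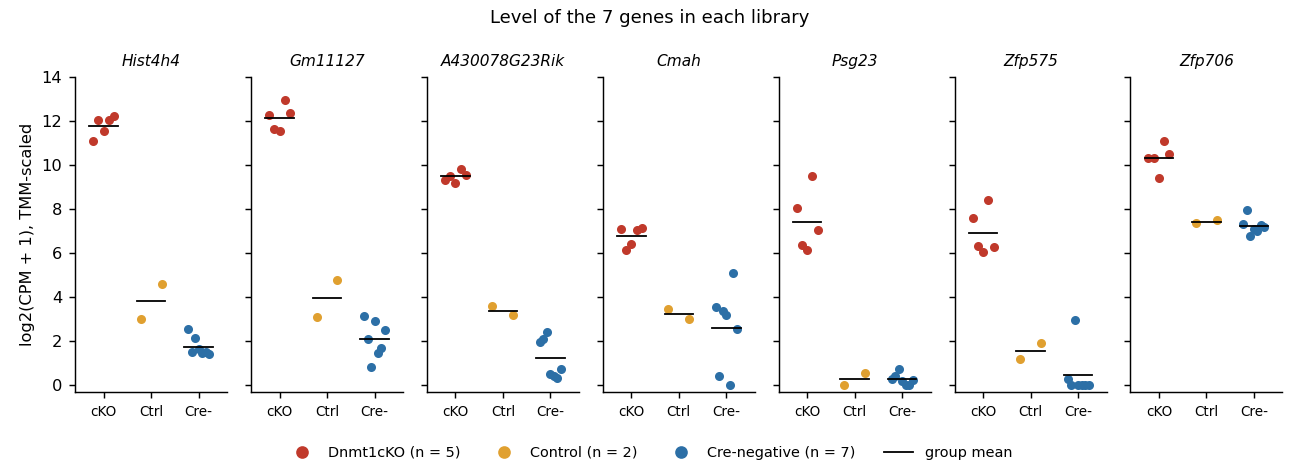
Points are libraries, bars are group means, and the vertical axis is log2(CPM + 1) with TMM scaling, for Dnmt1cKO (cKO, n = 5), Control (Ctrl, n = 2) and Cre-negative (Cre-, n = 7). In each of the 7 panels the 5 Dnmt1cKO points lie above the other 9, and Zfp706 differs from the rest in having 108 CPM or more in every library.

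Hist4h4 encodes histone H4, a core protein of the nucleosome. It measured 2211, 4187, 2983, 4275 and 4786 CPM in Dnmt1cKO libraries 1 to 5, against 7.21 and 23.2 CPM in Controls and a lowest, median and highest of 1.67, 1.90 and 4.91 CPM in Cre-negative libraries. The groups do not overlap: every Dnmt1cKO library is far above both Controls, and both Controls are above every Cre-negative library. The log2 fold change of Dnmt1cKO was 10.49 ± 0.42 against Cre-negative and 7.93 ± 0.68 against Control (SE of the fit), the second being 7.31 without Control 1 and 9.01 without Control 2. The lowest Dnmt1cKO library was 95.1 times the highest of the other 9.

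Most histone mRNAs that serve DNA replication lack a poly(A) tail, so a library of polyadenylated RNA sees little of them. Of 12 other histone H4 genes in the table, 5 passed the filter on low counts and edgeR called 0 in each of the 3 comparisons. Against Cre-negative, 1 was higher and 2 were lower with p under 0.05 before adjustment, and DESeq2 and limma-voom called 0. Their median log2 fold change was 0.68, with a range of -8.20 to 7.51, beside -0.04 over all genes tested. Against Control none had an unadjusted p under 0.05, and the same held for Control against Cre-negative, with 0 calls by DESeq2 and limma-voom in each. Of all 13011 genes tested, 6.66% were higher and 7.03% lower with p under 0.05 before adjustment against Cre-negative. Against Control 1.71% were higher and 5.23% lower, and in Control against Cre-negative 3.49% and 0.177%.

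Gm11127 is a predicted gene that lies among class I histocompatibility genes of the H2-T region on chromosome 17. It measured 4965, 3170, 3017, 7925 and 5357 CPM in Dnmt1cKO libraries, 7.69 and 26.7 CPM in Controls, and 0.809, 3.27 and 7.96 CPM (lowest, median, highest) in Cre-negative libraries. Dnmt1cKO libraries stand apart from all others, while the lower Control falls within the Cre-negative range. Fitted log2 fold changes were 10.23 ± 0.53 against Cre-negative and 8.16 ± 0.87 against Control, the second being 7.51 without Control 1 and 9.32 without Control 2. Of the stretches of 50 bases in its transcript, 78.3% also occur in another gene, most of them outside the shared copy, so reads could have been split with its relatives and its level is uncertain.

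Class I histocompatibility proteins present peptides on the cell surface, with B2m as partner and Tap1, Tap2 and Tapbp loading the peptide. Of 22 genes of this list in the table, 14 passed the filter. edgeR called 0 in each comparison. Against Cre-negative, 2 were higher and 1 lower with p under 0.05 before adjustment, and the median log2 fold change was 1.21. Against Control, 1 was higher and 1 lower at that level, and in Control against Cre-negative there was none. DESeq2 and limma-voom each called only H2-T22, against Cre-negative and lower, and called 0 in the other comparisons. H2-T22, named because of that call, averaged 6.69 CPM in Dnmt1cKO, 45.7 CPM in Control and 68.5 CPM in Cre-negative libraries, and lies 13069 bases from Gm11127. Its log2 fold change of -3.33 against Cre-negative had an adjusted p of 0.136 in edgeR.

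Psg23 encodes a pregnancy-specific glycoprotein, one of a family of secreted proteins made by placental trophoblast. It measured 263, 83.2, 71.1, 735 and 134 CPM in Dnmt1cKO libraries, against 0.0235 and 0.476 CPM in Controls and 0, 0.186 and 0.691 CPM (lowest, median, highest) in Cre-negative libraries. Summed over libraries these are 5367 expected counts in Dnmt1cKO, 3.28 in Control and 12.0 in Cre-negative. The gene was near or at 0 outside the Dnmt1cKO group, so its fold rests on very few counts: the fitted log2 fold change against Cre-negative was 10.21 ± 0.84, and 9.29 without Dnmt1cKO 4. Against Control it was 10.36 ± 1.53, and 9.34 without Dnmt1cKO 4, 8.99 without Control 1 and 13.97 without Control 2. It is the 1 gene of the 7 that would fail the filter on low counts in the 9 other libraries alone. Of the stretches of 50 bases in the Psg23 transcript, 37.2% also occur in another gene. Reads could therefore have been split with other genes, and its level is uncertain too.

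Psg23 also varied most within the Dnmt1cKO group, with a coefficient of variation of 108%, against 16.8% for A430078G23Rik, the least variable. Of the 21 other Psg and Ceacam genes in the table, 3 passed the filter. edgeR, DESeq2 and limma-voom called 0 in each comparison, and at an unadjusted p under 0.05 edgeR had 1 higher against Cre-negative, 0 against Control and 1 higher in Control against Cre-negative. The trophoblast markers Prl3d1, Prl2c2, Tpbpa, Hand1 and Cdx2 had 0 counts in all 5 Dnmt1cKO libraries. The list of 6 summed to 3.67 to 48.1 CPM in Dnmt1cKO, 4.05 and 13.1 CPM in Control and 0 to 12.1 CPM in Cre-negative libraries, all of it Gcm1 in the Dnmt1cKO group.

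Cmah encodes the hydroxylase that turns CMP-linked N-acetylneuraminic acid into the N-glycolyl form, a sialic acid found on mouse cell surfaces. It measured 137, 70.3, 83.5, 131 and 140 CPM in Dnmt1cKO libraries, 9.92 and 7.09 CPM in Controls, and 0, 8.07 and 33.3 CPM (lowest, median, highest) in Cre-negative libraries. Dnmt1cKO libraries stand above all 9 others, and both Controls lie within the Cre-negative range. The lowest Dnmt1cKO library was 2.11 times the highest Cre-negative one. Fitted log2 fold changes were 3.55 ± 0.84 against Cre-negative and 3.71 ± 1.45 against Control, and the first was 4.32 without Cre-negative 6.

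Of 16 genes of sialic acid synthesis, transfer and removal in the table, 14 passed the filter and edgeR called 0 in each comparison. Against Cre-negative 3 were higher and 1 lower with p under 0.05 before adjustment, and the median log2 fold change was 0.81. Against Control 1 was higher and 1 lower, and in Control against Cre-negative 1 was higher. DESeq2 called Slc35a1, St3gal2 and St3gal3 against Cre-negative, 2 of them higher, and limma-voom called Slc35a1 and St3gal3; both called only Slc35a1 against Control and 0 in Control against Cre-negative. Slc35a1, the transporter that brings CMP-sialic acid into the Golgi, averaged 260 CPM in Dnmt1cKO, 78.0 CPM in Control and 135 CPM in Cre-negative libraries, with a log2 fold change of 0.94 ± 0.28 against Cre-negative (edgeR adjusted p = 0.11).

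Zfp706 encodes a small zinc finger protein, known in mouse embryonic stem cells for favouring exit from self-renewal. It measured 1279, 1280, 682, 2174 and 1473 CPM in Dnmt1cKO libraries, 165 and 179 CPM in Controls, and 108, 144 and 253 CPM (lowest, median, highest) in Cre-negative libraries. It is the only one of the 7 with a substantial level in every library, and its lowest Dnmt1cKO value, from the library labelled Dnmt1cKO 3, was 2.69 times the highest of the others. On the log2 scale the fold change was 3.16 ± 0.27 against Cre-negative and 3.0 ± 0.45 against Control.

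Zfp575 encodes another zinc finger protein. It measured 192, 79.9, 64.8, 341 and 75.9 CPM in Dnmt1cKO libraries, 1.33 and 2.75 CPM in Controls, and 0, 0 and 6.86 CPM (lowest, median, highest) in Cre-negative libraries. Of its 42.8 expected counts over the 7 Cre-negative libraries, 39.7 came from library 3. Fitted log2 fold changes were 7.27 ± 1.21 against Cre-negative and 6.22 ± 2.03 against Control, and without Cre-negative library 3 the first of these was 11.18. The second was 6.82 without Control 2.

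A430078G23Rik is a locus with no role given here. It measured 646, 737, 589, 909 and 761 CPM in Dnmt1cKO libraries, 11.1 and 8.24 CPM in Controls, and 0.255, 0.692 and 4.44 CPM (lowest, median, highest) in Cre-negative libraries. The 3 groups stand apart, with both Controls between the Dnmt1cKO and the Cre-negative libraries. The log2 fold change was 8.75 ± 0.60 against Cre-negative and 6.23 ± 0.94 against Control. Arhgef18, 2707 bases away, averaged 72.9 CPM in Dnmt1cKO, 60.5 CPM in Control and 46.8 CPM in Cre-negative libraries, and its log2 fold change of 0.64 ± 0.50 against Cre-negative was not called (edgeR adjusted p = 0.672).

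Without the library labelled Dnmt1cKO 3, the log2 fold changes against Cre-negative were 10.59 for Hist4h4, 10.38 for Gm11127, 10.48 for Psg23, 8.86 for A430078G23Rik, 7.51 for Zfp575, 3.67 for Cmah and 3.35 for Zfp706. The library with the fewest stromal marker counts, Dnmt1cKO 1 at 261 CPM summed, had 2211 CPM of Hist4h4. The one with the most, the library labelled Dnmt1cKO 3 at 11760 CPM, had 2983 CPM. Each of the other genes was lower in the library labelled Dnmt1cKO 3 than in Dnmt1cKO 1. From Dnmt1cKO 1 to that library, Gm11127 went from 4965 to 3017 CPM, Zfp706 from 1279 to 682 and A430078G23Rik from 646 to 589. Psg23 went from 263 to 71.1 CPM, Zfp575 from 192 to 64.8 and Cmah from 137 to 83.5. With the stromal marker mean as a covariate, the log2 fold changes against Cre-negative ran from 3.26 for Zfp706 to 10.34 for Hist4h4.

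**Figure D3:**
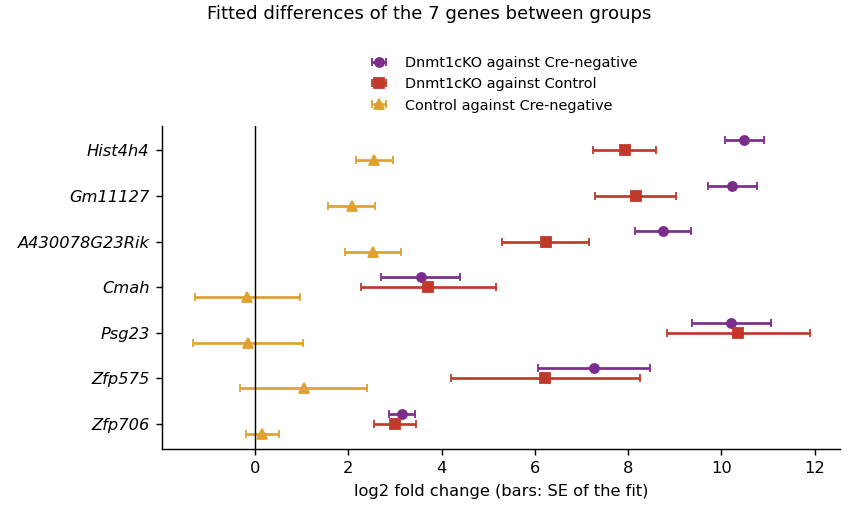
Log2 fold changes of the 7 genes with the SE of the edgeR fit as bars, for Dnmt1cKO against Cre-negative (circles), Dnmt1cKO against Control (squares) and Control against Cre-negative (triangles). Both Dnmt1cKO comparisons lie at 3.0 or above for each gene and share the Dnmt1cKO libraries, while the third runs from -0.16 to 2.56.

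Since transcripts differ in length, levels of different genes were compared per kilobase of the annotated transcript that carries the segment. On this scale the mean level in Dnmt1cKO was 3636 ± 1483 CPM per kb for Gm11127, 1288 ± 370 for Hist4h4, 312 ± 121 for Zfp706, 247 ± 41.5 for A430078G23Rik, 118 ± 128 for Psg23, 55 ± 43.2 for Zfp575 and 11.6 ± 3.38 for Cmah (SD, n = 5). Gm11127, at 2245 to 5897, did not overlap Hist4h4, at 772 to 1672, and Hist4h4 did not overlap Zfp706, at 154 to 492. Zfp706 overlapped A430078G23Rik, which spanned 200 to 309, and Psg23, at 32.6 to 337, overlapped A430078G23Rik and Zfp575. Cmah, at 7.22 to 14.4, was below the lowest Zfp575 value of 23.7. The place of Hist4h4 depends on its gene model: over the 439 bases of the RefSeq model, a length chosen after seeing the data, its mean was 8402 ± 2411 with a range of 5036 to 10900, above the mean of Gm11127 and overlapping it. In Control libraries the highest mean on this scale was that of Zfp706, 39.0 ± 2.25 (n = 2), and in Cre-negative libraries it was again Zfp706, 35.0 ± 10.5 (n = 7).

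The 7 genes did not keep 1 order over the Dnmt1cKO libraries. Dnmt1cKO 4 held the highest value of 5 genes, and Dnmt1cKO 5 that of Hist4h4 and Cmah. The library labelled Dnmt1cKO 3 held the lowest value of 5 genes, while Hist4h4 was lowest in Dnmt1cKO 1 and Cmah in Dnmt1cKO 2. Relative to Hist4h4 in the same library, expected counts of Gm11127 ranged from 0.757 to 2.25, those of Zfp706 from 0.229 to 0.578, and those of A430078G23Rik from 0.159 to 0.292. The highest ratio was 1.84 times the lowest for A430078G23Rik, 2.53 times for Zfp706, 2.97 times for Gm11127, 3.69 times for Cmah, 5.48 times for Zfp575 and 8.66 times for Psg23.

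Gm11127, Zfp575 and Zfp706 share the same 213 bases, and their counts did not stay in 1 ratio over the Dnmt1cKO libraries. Whether shared reads shaped these ratios was not tested. Gm11127 had 23.2 to 70.6 times the count of Zfp575, and 2.48 to 4.43 times that of Zfp706. Psg23 and Zfp575 had counts of more similar size, with 1.04 to 2.16 counts of Psg23 for each count of Zfp575, but this ratio was not steady either.

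**Figure D4:**
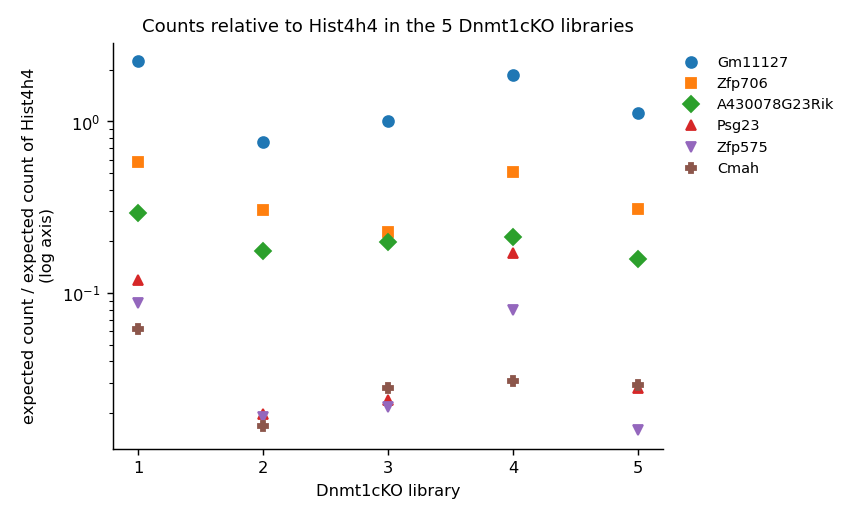
Expected count of 6 genes divided by that of Hist4h4 in the same library, on a log axis, for the 5 Dnmt1cKO libraries. Psg23 and Zfp575 spread the most, with Psg23 between 0.0199 and 0.172, and A430078G23Rik the least.

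RSEM divides a read that fits several places among them, which leaves values that are not whole. Of the values of 1 or more for the 7 genes, 81 of 89 (91.0%) were further than 0.01 from a whole number, against 79 of 336 (23.5%) for other genes that carry the segment and 31076 of 156347 (19.9%) for the rest of the table. In all 7 genes GENCODE pairs the carrying transcript with a RefSeq transcript. For the other carriers of which this is true, 40 of 64 values (62.5%) were not whole. Among values of 100 counts or more in Dnmt1cKO libraries, 19.3% were not whole for genes that do not carry the segment. All 14 Hist4h4 values and all 14 Zfp706 values were not whole. How many reads of each gene were divided was not tested, and the levels above include whatever share was assigned.

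The transcripts show how far such sharing could reach. Of the 50-base stretches of the segment copy, Gm11127, A430078G23Rik, Zfp575 and Zfp706 had 249, 172, 178 and 203 that occur in another gene, including one another. Hist4h4 had 224 and Psg23 99 such stretches, and Cmah 39, but none of these 3 shared a 50-base stretch with another of the 7. Outside the copy, 765 further stretches of Gm11127, 694 of Psg23, 402 of Cmah and 168 of Zfp706 occurred in another gene. For Zfp575 there were 50, for Hist4h4 5 and for A430078G23Rik 0.

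**Figure D5:**
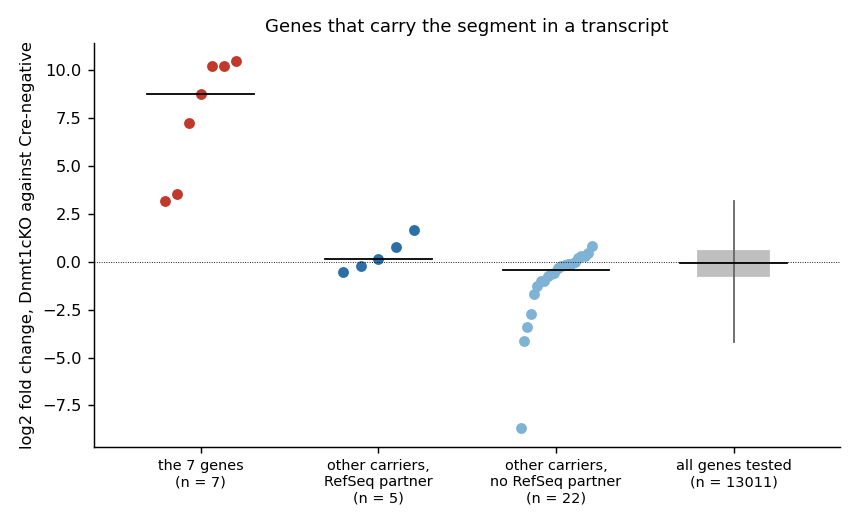
Log2 fold change of Dnmt1cKO against Cre-negative for the genes that carry the segment: the 7 genes, the 5 tested others whose carrying transcript has a RefSeq partner, and the 22 tested others without one. Black bars are medians, and the box and line at the right give the 25th to 75th and the 5th to 95th percentile of all 13011 genes tested, which run from -0.72 to 0.59 and from -4.20 to 3.16.

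A transcript match of at least 80% identity over at least 100 bases was found in 93 GENCODE genes, 43 of them in the table. Of the 36 that are not among the 7, 27 passed the filter on low counts. edgeR called 0 of the 27 against Cre-negative, where 1.1% of all genes tested were called, and with p under 0.05 before adjustment it had 0 higher and 2 lower. DESeq2 and limma-voom each called 2, Sergef and Wdr31, both lower. The median log2 fold change of the 27 was -0.24, with a range of -8.70 to 1.67, beside -0.04 over all genes tested. Against Control edgeR called 0, and before adjustment 0 were higher and 2 lower with p under 0.05. There DESeq2 and limma-voom called 0. In Control against Cre-negative all 3 tools called 0, and none of the 27 had an unadjusted p under 0.05. Since the 7 genes were chosen for being raised, the contrast with the 36 is a description.

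The 7 and the 36 also differ in features that the choice did not name. The annotation used for counting is not known, so these features may not be independent of which genes were seen as raised. The carrying transcript was paired with a RefSeq transcript by GENCODE for 7 of 7 genes and for 8 of 36. Such a partner need not hold the copy: the RefSeq model of Hist4h4 lies 1557 bases from the segment. The copy ran in the sense direction in 6 of 7 and in 14 of 36, and ended within 250 bases of the transcript's 3′ end in the sense direction in 5 of 7 and in 10 of 36. A RefSeq partner and such a terminal copy were found together in 5 of 7 and in 6 of 36. Those 6 others were Bhmt2, Ercc6l, Il1f9, Psg29, Trpc6 and Olfr1055, named because they match this description. Bhmt2, Ercc6l and Il1f9 passed the filter, with log2 fold changes of 0.79, -0.24 and 1.67 against Cre-negative, and none was called.

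Among the genes near the 7, edgeR called 0. Of 31 genes of the table within 100 kb, found by their GENCODE M21 symbols, 21 passed the filter, and their median log2 fold change was -0.10 against Cre-negative. The 21 lie near 4 of the 7 genes, with 8 at Zfp575, 6 at Gm11127, 4 at Hist4h4 and 3 at A430078G23Rik, while Cmah, Psg23 and Zfp706 had no tested neighbour. At an unadjusted p under 0.05, 1 was higher and 2 were lower, and DESeq2 and limma-voom each called only H2-T22, lower. Against Control 0 were higher and 1 lower at that level, and in Control against Cre-negative none was; DESeq2 and limma-voom called 0 in both. Next to Hist4h4, at 3829 bases, H2afj averaged 56.6 CPM in Dnmt1cKO, 23 CPM in Control and 55.8 CPM in Cre-negative libraries.

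Genes that write DNA methylation or silence retroviral repeats were measured as a further list, with Uhrf1, Trim28, Setdb1 and Zfp809 among them. Of its 16 genes, 15 passed the filter and edgeR, DESeq2 and limma-voom called 0 in each comparison. Against Cre-negative 2 were higher and 2 lower with p under 0.05 before adjustment, with the median at 0.00, and in the other comparisons none was. Dnmt1 itself had a log2 fold change of -1.31 ± 0.52 against Cre-negative (edgeR adjusted p = 0.249).

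The difference of Control against Cre-negative used no Dnmt1cKO library, though it shares the Cre-negative libraries with the contrast that chose the genes. Its SE and p come from 1 fit of the 3 groups, so they also rest on the Dnmt1cKO libraries. edgeR called 1 of the 7 genes, Hist4h4, where 0.0538% of all genes tested were called. Its log2 fold change was 2.56 ± 0.39 (adjusted p = 0.0025), and 2 of 2 Controls were above all 7 Cre-negative libraries. With only the 2 groups compared, the log2 fold change was 2.65 ± 1.41 and Hist4h4 was not called. The call depends on 1 library: without Control 2, at 23.2 CPM of Hist4h4, the log2 fold change was 1.52 (adjusted p = 0.926), and without Control 1 it was 3.23. Over 24 alternative settings the adjusted p ran from 9.94e-07 to 1. Control 2 also had the higher stromal marker sum, 12630 CPM against 3372 CPM in Control 1, and with the stromal marker mean as a covariate the log2 fold change was 2.30 (adjusted p = 0.772); the part of stroma in this difference was not tested further.

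Gm11127 and A430078G23Rik had differences of like size that were not called, with log2 fold changes of 2.07 ± 0.50 and 2.52 ± 0.60 and an adjusted p of 0.226 for both (edgeR). Over the alternatives their adjusted p ran from 0.00134 to 1 and from 0.00375 to 1. Gm11127 was called without Control 1, at 2.76 (adjusted p = 0.0323), and measured 0.94 without Control 2 (adjusted p = 1); A430078G23Rik was called without Cre-negative 3 (adjusted p = 0.0443). Both Controls were above all Cre-negative libraries for Hist4h4 and A430078G23Rik, 2 of the 7 genes, as for 6.03% of all genes tested.

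The other 4 genes were not called between Control and Cre-negative, with an adjusted p of 1 in edgeR. The log2 fold changes were 1.04 ± 1.36 for Zfp575, 0.16 ± 0.36 for Zfp706, -0.14 ± 1.18 for Psg23 and -0.16 ± 1.12 for Cmah. Psg23 was at 1.25 without Control 1 and at -3.74 without Control 2, and Cmah at 0.60 without Cre-negative 6. Without Cre-negative 3, the library that holds nearly all Cre-negative counts of Zfp575, that gene's value was 4.96 (adjusted p = 0.0415). The SE of Cmah, Psg23 and Zfp575 exceeds 1 on the log2 scale.

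The genes whose profile was most like that of Hist4h4 were found by the root mean square difference of log2(CPM + 1), after subtracting each gene's own mean, over the 14 libraries. The 5 closest of all genes tested were Trap1a at 0.478, Rhox6 at 0.548, Gm11127 at 0.669, A430078G23Rik at 1.06 and Rhox5 at 1.15, where the median gene was at 4.96. Trap1a, Rhox6 and Rhox5 lie on the X chromosome and do not carry the segment; Rhox genes are homeobox genes of reproductive tissue. Trap1a averaged 1009 CPM in Dnmt1cKO, 6.63 CPM in Control and 0.312 CPM in Cre-negative libraries. Rhox6 averaged 714, 3.15 and 0.131 CPM in the Dnmt1cKO, Control and Cre-negative libraries, and Rhox5 averaged 308, 8.30 and 0.0770 CPM. Psg23 ranked 10th in likeness, Zfp575 16th, Cmah 46th and Zfp706 68th. The 14 libraries include the Dnmt1cKO libraries in which these genes were chosen for being raised. Their places near Hist4h4 follow in part from that choice, and nothing is read from them.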

How the data were processed

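The deposited values are expected counts per gene symbol in 14 libraries, as RSEM estimates them, not scaled to depth. RSEM 1.2.3, Bowtie 0.12.9, bcl2fastq 2.17.1.14 and mm10 are named, without their roles, in the submitters' processing notes. For the annotation, the read length and the strand setting no source used here gives a value. Expected counts were rounded. Genes passing filterByExpr (minimum count 10; 13011 of 20308) were scaled by TMM and tested with the quasi-likelihood test of edgeR 4.0.16 (R 4.3.3), the 3 groups in 1 fit, with a Benjamini-Hochberg adjusted p under 0.05 called. In simulated data the fit recovered 35.8% of 4-fold and 59.1% of 16-fold changes against Cre-negative. Against Control these shares were 5.97% and 28.8%, and in Control against Cre-negative 10.4% and 56.1%. Of 2-fold changes it recovered 0%, 0% and 1.49% in these comparisons. A gene that was not called may therefore still differ. Alternatives used limma 3.58.1 (voom), DESeq2 1.42.0, other scalings, filters and covariates, and left out each library. CPM uses TMM-scaled library sizes. A floor of 3 counts is 0.207 CPM in the deepest and 1.3 CPM in the shallowest library, and covers counting error only. No libraries of 1 group agreed within sampling noise (chi-square per degree of freedom at least 54.4).

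The segment was searched with BLAST+ 2.17.0 in GENCODE M21 transcripts (GRCm38), in which 19327 of the symbols were found; a genome search was not run. Promoters are from RefSeq (GRCm38.p6). Named genes were the 7, Dnmt1, Shh, the 5 most like Hist4h4 and called carriers, neighbours and list genes; others named were chosen after their values were seen, and the text says why. The 7 genes and the lists were chosen with earlier results of these data known.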

Additional observations from a re-analysis of the deposited data

Results flagged for a closer look

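Within the groups of 5 and 7 libraries, the highest and lowest library of each of the 7 genes was compared with the rest by Dixon's gap ratio, in 14 groups. In 4 of them 1 library stood apart. Chance gives about 1 in 20 for normally distributed values, which CPM near 0 are not, so the 4 are only a description. Psg23 measured 735 CPM in Dnmt1cKO 4, and the next library had 263 CPM. Cmah measured 33.3 CPM in Cre-negative 6, and the next had 10.6 CPM. Zfp575 measured 6.86 CPM in Cre-negative 3, and the next had 0.225 CPM. Zfp706 measured 253 CPM in Cre-negative 2, and the next had 158 CPM.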

How the results depend on the processing

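For the 7 genes, both Dnmt1cKO log2 fold changes kept their direction under all 24 alternatives. All 7 genes stayed above the 9 other libraries under RLE and upper-quartile scaling. Counts of called genes moved more. Against Cre-negative 143 genes were called, and 565 with DESeq2, 454 with limma-voom, 249 with no filter, 86 with only the 2 groups compared and 83 with the stromal covariate; leaving out 1 library gave 93 (without Cre-negative 7) to 238 (without Dnmt1cKO 2). Against Control 23 were called, and 121 with DESeq2 and 232 with limma-voom, with 6 (without Control 1) to 37 (without Dnmt1cKO 2) leaving out 1 library, and 9 without Control 2. Between Control and Cre-negative 7 were called, and 31 with DESeq2, 40 with limma-voom, 25 with no filter and 4 with the stromal covariate, with 2 (without Control 2) to 11 (without Control 1 or Dnmt1cKO 1) leaving out 1 library.

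Of the 7 genes, 1 was called between Control and Cre-negative, and 2 with DESeq2, 3 with no filter, 0 with limma-voom, the stromal covariate or only the 2 groups compared, and 0 (without Control 2) to 3 (without Cre-negative 3) leaving out 1 library. The log2 fold change of Hist4h4 there was 2.14 with limma-voom, 2.30 with the stromal covariate and 2.65 with only the 2 groups, none of them called, and 1.52 to 3.23 leaving out 1 library; the cause was not tested.

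Replicate numbers did not pair the samples: deviations of same-numbered libraries correlated at -0.193 to 0.114. With the replicate number as a block, 75 genes were called against Cre-negative and 19 between Control and Cre-negative, with 0 of the 7 genes and a log2 fold change of 2.19 for Hist4h4.

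At 90% identity over 100 bases 8 genes carried the segment, 1 of them (Hist4h4 itself) among the 7. With 50 bases, or with the copy of Gm11127 as the query, an alternative chosen after seeing the data, 46 did, with all 7 among them. The share of values that are not whole was 93.3% at a tolerance of 0.001. Under 3 counts were held by 5 of the 7 Cre-negative libraries for Psg23 and likewise for Zfp575.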

Other observations

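Among the transcripts that end in the segment, 4 are described here, picked after their values were seen. Psg29 and Trpc6 failed the filter on low counts, and Bhmt2 and Il1f9 passed it and were not called. Psg29, a pregnancy-specific glycoprotein gene like Psg23, had 66.0 expected counts in Dnmt1cKO 1, 1.11 in Dnmt1cKO 5 and 0 in the other 12 libraries. Trpc6, a cation channel gene, had 79 counts in Dnmt1cKO 2 and 0 in the other 13. Bhmt2, a methyltransferase of the homocysteine pathway, had 80 counts in Dnmt1cKO 5, 1.12 to 7.13 in the other Dnmt1cKO libraries, 1.03 and 34.2 in Controls and 0 to 66 in Cre-negative libraries. Il1f9, a cytokine of the interleukin-1 family, had 8.13 to 81.7 counts in the 5 Dnmt1cKO libraries, 0 and 1.81 in Controls, and 0 to 65.1 in Cre-negative libraries, where library 2 held most.

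Markers of other cell types were also measured. Of the male germ cell markers, Dazl rose to 97.0 CPM in Dnmt1cKO, against 0.0346 CPM in Control and 0.12 CPM in Cre-negative libraries (edgeR adjusted p = 2.09e-07 against Cre-negative). Stra8 also rose against Cre-negative (edgeR adjusted p = 0.00726), though it had 0 CPM in Dnmt1cKO 5. Sycp3 had 0 counts in all 5 Dnmt1cKO libraries. DESeq2 called Dazl and Stra8 there, and limma-voom called these and Ddx4, all higher. Against Control edgeR called only Dazl, while DESeq2 and limma-voom called Dazl and Stra8, all higher. Of 16 stroma and smooth muscle markers, Tagln and Myh11 rose against Cre-negative (adjusted p = 0.0129 and 0.0242) and 11 were higher before adjustment at p under 0.05, with a median log2 fold change for the 16 of 2.11. DESeq2 called 5 of them there, all higher, and limma-voom 0. None was called against Control, where none had an unadjusted p under 0.05 and DESeq2 and limma-voom called 0. In Control against Cre-negative all 3 tools called 0, while 11 were higher before adjustment at p under 0.05 and the median was 2.67. Of the neural and glial markers, Uchl1 fell in Dnmt1cKO against Cre-negative (adjusted p = 0.0377), while 4 of the 5 tested had positive log2 fold changes, with a median of 2.40. DESeq2 called Tubb3 higher and Uchl1 lower there, and limma-voom called Uchl1 only. The list summed to 43.1 to 436 CPM in Dnmt1cKO, 364 and 399 CPM in Control and 298 to 821 CPM in Cre-negative libraries. Endothelial markers summed to 0 to 91.9 CPM in Dnmt1cKO, 15.2 and 47.0 CPM in Control and 0.271 to 16.9 CPM in Cre-negative libraries. Immune markers summed to 0 to 79.6, 5.18 to 16.8 and 0 to 20.7 CPM in the Dnmt1cKO, Control and Cre-negative libraries. Of the erythroid markers, DESeq2 called only Hbb-bs, higher against Cre-negative, where edgeR and limma-voom called 0. Erythroid markers summed to 162 to 1730 CPM in Dnmt1cKO, 422 and 1154 CPM in Control and 63.7 to 365 CPM in Cre-negative libraries. Mesothelial markers, a list that shares Upk3b with the urothelial one, summed to 150 to 454, 298 to 330 and 93.9 to 420 CPM in those groups. Of that list, Wt1 ran from 0.833 to 80.1 CPM in Dnmt1cKO and from 0.382 to 10.9 CPM in Cre-negative libraries. It measured 33.3 and 143 CPM in Controls. DESeq2 called only Wt1 of the list, higher against Cre-negative, while edgeR and limma-voom called 0. Apart from the stromal covariate, the part of these cell types in the levels of the 7 genes was not tested.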
